A study of Mus musculus with 4 samples.

Results

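The transcripts of 10 genes of the ATF4 amino-acid stress response (Atf4, Ddit3, Trib3, Chac1, Asns, Psat1, Phgdh, Cth, Stc2 and Sesn2) were counted in single cells of leukaemic mouse bone marrow and spleen. They are 10 of the 32285 genes in each matrix, and all 10 were found. Raw counts of unique molecular identifiers (UMIs, 1 per captured transcript) were summed over the cells of each marker-defined class in each library. The genes are known members of the response and were chosen with earlier results of these data known. Cth and Stc2 were also chosen by their UMIs, since they led the control leukaemia cells in these same data. Their high level there, and a lower level elsewhere, shares that choice and is given as a description. Levels are given as CPM, the UMIs of a gene scaled to 1000000 UMIs of the same class and library.

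The mice were C57BL/6J animals, 6–8 weeks of age, that carried MA9 cells, blood progenitors transformed with the MLL-AF9 fusion as a model of acute myeloid leukaemia. The MA9 cells held a doxycycline (DOX)-inducible hairpin, either against Prmt9 (labelled shPrmt9) or as a control (labelled Ctrl), and all 4 groups had received DOX in the drinking water for 7 days. The hairpin was in the leukaemia cells and not in the recipient's own cells. The marrow groups were BM-Ctrl and BM-shPrmt9, the spleen groups Spleen-Ctrl and Spleen-shPrmt9, each of 1 library from 1 representative mouse, so no test between groups was possible. Every interval given here is a 95% interval that covers counting error only, exact Poisson for a level and exact conditional binomial for a ratio.

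ATF4 is a transcription factor whose mRNA is translated more efficiently when general translation is slowed by phosphorylation of eIF2. The kinases that do this sense uncharged tRNA (GCN2), misfolded protein in the endoplasmic reticulum (PERK), lack of haem (HRI) or double-stranded RNA (PKR). ATF4 and its partners then bind composite C/EBP-ATF elements and raise the transcription of genes for amino-acid synthesis, uptake and tRNA charging, together with genes that limit the response or promote cell death.

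The promoters of 9 members were found among the RefSeq promoter windows of GRCm38.p6, each 250 bases before to 50 after a start site. Cth was not among them. A core of the composite element, TGATGNAA, was searched on both strands, and it was present in 3 of the 9 members and in 3.97% (1304 of 32851) of all windows. The members are known genes of the response, so their share is a description, and its bearing on the levels was not tested. The 3 windows that held the element are shown, each written 5′ to 3′ on the strand of the gene. The element is in capitals, as its reverse complement where it lay on the other strand. In Trib3 (chr2:152344011-152344310, minus strand) it began 14 bases after the start site, in Chac1 (chr2:119350992-119351291, plus strand) 193 bases before it and in Asns (chr6:7693160-7693459, minus strand) 23 bases before it.
Trib3: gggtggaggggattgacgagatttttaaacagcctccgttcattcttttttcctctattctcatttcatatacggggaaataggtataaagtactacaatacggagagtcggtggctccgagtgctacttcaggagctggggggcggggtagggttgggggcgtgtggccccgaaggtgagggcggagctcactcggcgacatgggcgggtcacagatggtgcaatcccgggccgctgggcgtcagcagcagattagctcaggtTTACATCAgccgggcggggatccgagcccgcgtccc
Chac1: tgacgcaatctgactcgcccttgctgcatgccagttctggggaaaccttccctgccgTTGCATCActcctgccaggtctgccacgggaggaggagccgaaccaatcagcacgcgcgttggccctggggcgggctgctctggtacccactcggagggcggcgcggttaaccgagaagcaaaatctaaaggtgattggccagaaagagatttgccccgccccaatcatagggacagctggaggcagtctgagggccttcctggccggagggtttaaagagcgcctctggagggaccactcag
Asns: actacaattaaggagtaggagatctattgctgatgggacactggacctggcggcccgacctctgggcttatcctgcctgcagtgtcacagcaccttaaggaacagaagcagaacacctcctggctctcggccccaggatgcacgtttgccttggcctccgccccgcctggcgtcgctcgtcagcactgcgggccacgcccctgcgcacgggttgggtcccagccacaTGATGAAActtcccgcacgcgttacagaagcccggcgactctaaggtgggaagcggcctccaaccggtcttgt
These letters were not present in the windows of Atf4, Ddit3, Psat1, Phgdh, Stc2 or Sesn2.

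The libraries held 8648 to 11315 cell barcodes and 84009744 to 188030429 UMIs, and 7545 to 10175 cells of each were used, with medians of 6268 to 10377 UMIs. Between 15 and 35 barcodes were shared by each pair of libraries. MA9-like cells were those with UMIs of at least 3 of Hoxa9, Hoxa10, Hoxa7, Hoxa5, Meis1 and Pbx3, at 100 CPM or more in sum. No score for another class could reach 0.3, immature neutrophils excepted. This limit did not remove all cells with markers of other classes, whose levels are given below. MA9-like cells numbered 1155 in BM-Ctrl and 1498 in BM-shPrmt9, and in the spleens 36 (Ctrl) and 164 (shPrmt9). All 6 MA9 markers were detected in all 4 libraries, with summed levels of 466, 641, 418 and 425 CPM in the same order. Prmt9, the target of the hairpin, was at 12.0 CPM (11.2–12.9) in MA9-like cells of BM-Ctrl and 6.40 CPM (5.85–6.99) in those of BM-shPrmt9, and in the spleens at 18.8 CPM (12.5–27.1) for Ctrl and 6.23 CPM (4.14–9.0) for shPrmt9. It was thus 1.87-fold (1.67–2.10) lower with the hairpin in bone marrow and 3.01-fold (1.72–5.27) lower in spleen. The libraries also differed in other ways that move with the groups. Xist was at 108 to 1230 CPM in the other classes of BM-shPrmt9. It was at or under 0.475 CPM in monocytes, neutrophils, erythroid cells and basophils of BM-Ctrl, whose T cells had 297 CPM. The MA9-like cells had 0.155 CPM of Xist in BM-Ctrl and 20.3 CPM in BM-shPrmt9. By Xist, those myeloid and erythroid classes of BM-Ctrl were not told apart from its MA9-like cells. Whether they were the recipient's own cells was not tested. The 4 Y-linked genes looked at were seen at 30.5 to 235 CPM in the other classes of the spleens only. They were at no more than 0.151 CPM in those of the marrows. The bone marrow and spleen libraries of a treatment thus differed in sex-linked transcripts and did not look like those of the same animal. Tissue cannot be told apart from animal and sex when they are compared, and the part of this in the results was not tested.

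In MA9-like cells of bone marrow, all 10 members were lower with Prmt9 KD than in the control. The summed members were at 1813 CPM (1803–1824) in BM-Ctrl and 825 CPM (818–831) in BM-shPrmt9, and in the spleens at 687 CPM (646–730) for Ctrl and 465 CPM (445–486) for shPrmt9. BM-Ctrl therefore stood above the other 3 libraries, and Spleen-Ctrl was closer to BM-shPrmt9 than to BM-Ctrl. Each single member was highest in BM-Ctrl too, 10 of 10, where 29.2% of all genes tested had their highest level in BM-Ctrl. The interval of BM-Ctrl also lay above those of the other 3 libraries in 10 of 10. No share over all genes was taken for that stricter rule. In bone marrow 6 of the 10 members were at least 2-fold lower with the hairpin and 0 were at least 2-fold higher, against 6.12% lower and 12.6% higher of all 13589 genes with enough UMIs. The median log2 ratio of the members was -1.62, and that of all genes was 0.03. The 6 were Ddit3, Trib3, Chac1, Cth, Stc2 and Sesn2. Of them Stc2 was the nearest to the 2-fold limit, while Atf4 lay just outside it. Cth and Stc2, picked for their level in control leukaemia cells, are among the 6 and enter the median. The counts and the median are in that part a description, and they were not taken without these genes.

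**Figure D1:**
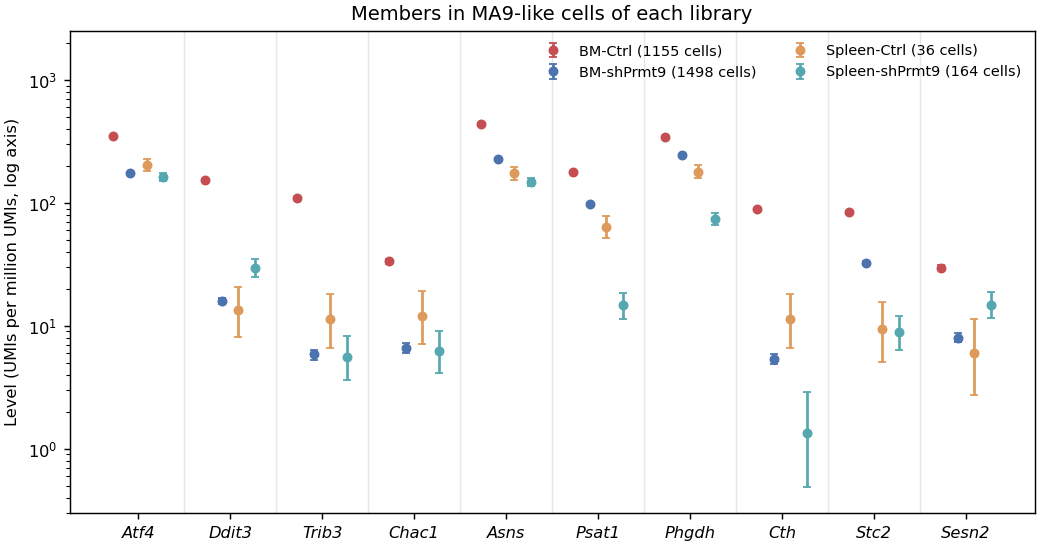
Level of each member in MA9-like cells of the 4 libraries, in CPM on a log axis, with exact Poisson 95% intervals as bars. BM-Ctrl is the highest point for each of the 10 genes, and the gap to BM-shPrmt9 is widest for Trib3 (109 against 5.85 CPM) and Cth (89.1 against 5.39 CPM).

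Among the transcription factors, Atf4 itself (ENSMUSG00000042406, chr15:80255184-80257541, plus strand, GRCm38) was counted at 349 CPM (344–353) in MA9-like cells of BM-Ctrl and 177 CPM (174–179) in those of BM-shPrmt9, and in the spleens at 205 CPM (183–229) for Ctrl and 162 CPM (151–175) for shPrmt9. Its level was 1.97-fold (1.93–2.02) lower with the hairpin in bone marrow and 1.26-fold (1.10–1.44) lower in spleen. These are mRNA levels, and ATF4 protein, which is set largely by translation, was not measured. Ddit3 (ENSMUSG00000025408, chr10:127290774-127296288, plus strand) encodes CHOP, a partner of ATF4 that is known for promoting death of stressed cells. It was at 155 CPM (152–158) in BM-Ctrl and 15.9 CPM (15–16.8) in BM-shPrmt9, and in the spleens at 13.4 CPM (8.18–20.7) for Ctrl and 29.6 CPM (24.8–35.1) for shPrmt9. A second annotated Ddit3 gene that overlaps the first (ENSMUSG00000116429) had 0 UMIs in all 4 libraries. The difference in bone marrow was 9.75-fold (9.19–10.4). In spleen Ddit3 went the other way and was 2.21-fold (1.37–3.73) higher with the hairpin, from 20 UMIs in Spleen-Ctrl and 133 in Spleen-shPrmt9. That spleen difference, 1.14 on the log2 scale, was 0.98 when free RNA was subtracted and 0.79 when 4 MA9 markers were asked for, both under 2-fold.

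The members that limit or branch from the response were among the most different in bone marrow. Trib3 (ENSMUSG00000032715, chr2:152337422-152344032, minus strand), a pseudokinase induced by ATF4 and CHOP that restrains them in turn, was at 109 CPM (107–112), 5.85 CPM (5.32–6.41), 11.4 CPM (6.63–18.2) and 5.56 CPM (3.60–8.21) in BM-Ctrl, BM-shPrmt9 and the Ctrl and shPrmt9 spleens. The bone marrow levels were 18.7-fold (17–20.6) apart, the widest gap of the 10 members, and the spleen levels 2.05-fold (1.04–3.94). Chac1 (ENSMUSG00000027313, chr2:119351229-119354381, plus strand), an enzyme that degrades glutathione, was at 33.6 CPM (32.2–35.0), 6.62 CPM (6.06–7.22), 12.1 CPM (7.14–19) and 6.23 CPM (4.14–9.0) in the same order. That was 5.07-fold (4.6–5.59) lower with the hairpin in bone marrow and 1.94-fold (1.01–3.62) lower in spleen. Sesn2 (ENSMUSG00000028893, chr4:132492032-132510501, minus strand), a leucine-binding inhibitor of mTORC1 signalling, was at 29.7 CPM (28.4–31.0), 8.02 CPM (7.40–8.68), 6.03 CPM (2.76–11.4) and 14.9 CPM (11.6–18.9). It was 3.70-fold (3.38–4.06) lower in bone marrow but 2.47-fold (1.23–5.64) higher in spleen, where the control had 9 UMIs.

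Asparagine synthetase and the 2 enzymes of serine synthesis were under 2-fold lower in bone marrow, and in spleen the serine enzymes, but not Asns, passed 2-fold. Asns (ENSMUSG00000029752, chr6:7675169-7693254, minus strand) was at 439 CPM (434–444) in BM-Ctrl and 229 CPM (226–232) in BM-shPrmt9, and in the spleens at 175 CPM (155–198) for Ctrl and 148 CPM (136–159) for shPrmt9. Its level was 1.92-fold (1.88–1.95) lower with the hairpin in bone marrow and 1.19-fold (1.03–1.37) lower in spleen. Phgdh (ENSMUSG00000053398, chr3:98313170-98339990, minus strand), which catalyses the first committed step of serine synthesis, was at 348 CPM (343–352), 246 CPM (243–250), 179 CPM (159–202) and 74.1 CPM (66.3–82.5) in the same order, and its 1.41-fold (1.38–1.44) gap in bone marrow was the narrowest of the 10. Psat1 (ENSMUSG00000024640, chr19:15904678-15947337, minus strand), the aminotransferase of the next step, was at 177 CPM (174–181), 98.4 CPM (96.2–101), 63.6 CPM (51.5–77.8) and 14.7 CPM (11.4–18.7). Both were further apart in spleen than in bone marrow, with Psat1 4.33-fold (3.13–6.02) and Phgdh 2.42-fold (2.05–2.85) lower in Spleen-shPrmt9 than in Spleen-Ctrl.

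Cth (ENSMUSG00000028179, chr3:157894248-157925077, minus strand) encodes cystathionine gamma-lyase, which makes cysteine from methionine-derived cystathionine. It was at 89.1 CPM (86.9–91.5) in BM-Ctrl and 5.39 CPM (4.89–5.94) in BM-shPrmt9, and in the spleens at 11.4 CPM (6.63–18.2) for Ctrl and 1.33 CPM (0.490–2.91) for shPrmt9. These levels were 16.5-fold (15–18.3) apart in bone marrow and 8.53-fold (3.21–26.4) apart in spleen, where 17 and 6 UMIs were counted. Stc2 (ENSMUSG00000020303, chr11:31357307-31370074, minus strand), a secreted glycoprotein of the stanniocalcin family, was at 83.7 CPM (81.5–85.9), 32.7 CPM (31.4–34.0), 9.38 CPM (5.13–15.7) and 8.90 CPM (6.36–12.1). It was 2.56-fold (2.44–2.69) lower with the hairpin in bone marrow, and in spleen the interval of its ratio held 1 (0.506–1.89). As both genes had been picked for their level in BM-Ctrl, their bone marrow ratios describe that choice as well as the groups.

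In MA9-like cells of spleen, 4 of the 10 members (Trib3, Psat1, Phgdh and Cth) were at least 2-fold lower with the hairpin and 2 (Ddit3 and Sesn2) at least 2-fold higher, against 16.1% lower and 11.6% higher of all 9090 genes with enough UMIs. The median log2 ratio was -0.64 for the members and -0.10 for all genes, and it lay between -0.27 and -0.70 over the other settings tried. Spleen-Ctrl gave only 36 cells and 9 to 306 UMIs per member, so the intervals are wide. The 2 control libraries also differed from each other. The summed members of Spleen-Ctrl were 0.379 (0.356–0.403) of those of BM-Ctrl, and the single ratios ran from 0.0866 (0.0529–0.134) for Ddit3 to 0.588 (0.524–0.658) for Atf4. Against BM-shPrmt9 the sum of Spleen-Ctrl was at 0.833 (0.783–0.886).

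**Figure D2:**
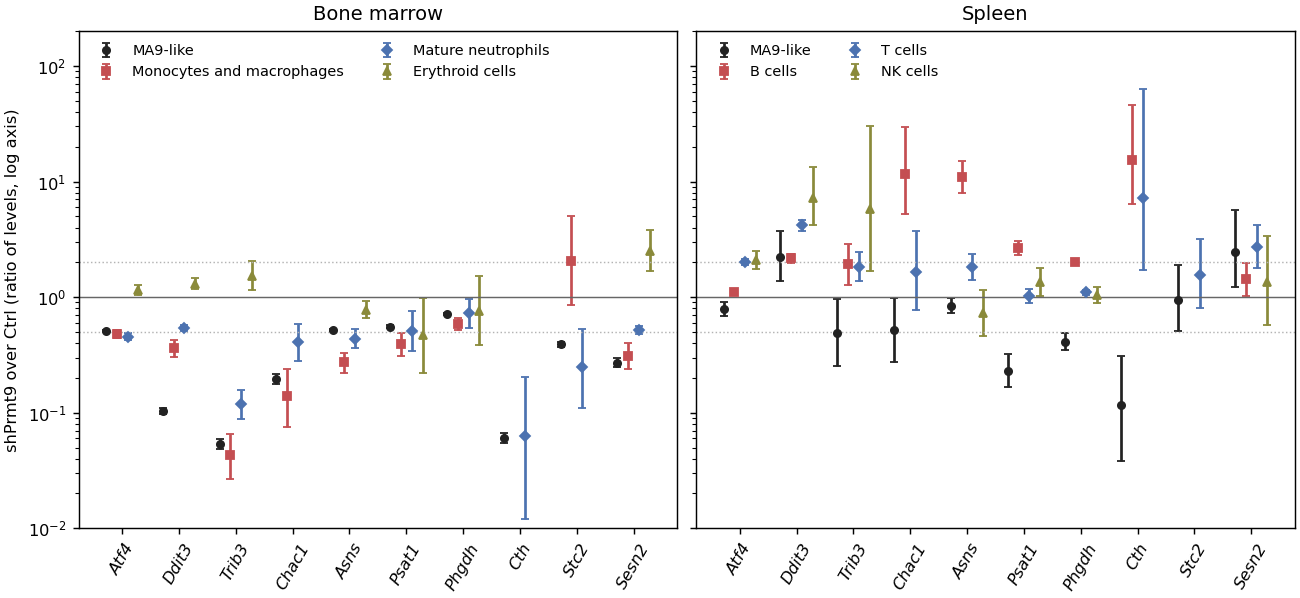
Ratio of shPrmt9 over Ctrl for each member in MA9-like cells and other classes of bone marrow (left) and spleen (right), on a log axis, with exact 95% conditional intervals as bars. The line at 1 marks equal levels. In bone marrow the points of MA9-like cells all lie under 1, while in spleen the points of B, T and NK cells lie mostly above it.

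The lower level in bone marrow was spread over the MA9-like cells. The summed members of a single cell had a median of 1761 CPM in BM-Ctrl with a middle range (25th to 75th percentile) of 1217 to 2170, and a median of 600 CPM in BM-shPrmt9 with a range of 324 to 968. In Spleen-Ctrl and Spleen-shPrmt9 the medians were 515 and 367 CPM. Of the 1498 cells of BM-shPrmt9, 24 (1.60%) exceeded the median of BM-Ctrl, as did 1 of 36 cells of Spleen-Ctrl and 2 of 164 of Spleen-shPrmt9. The distributions of the bone marrow libraries overlapped at their edges, since 5% of BM-Ctrl cells had sums under 416 CPM and 5% of BM-shPrmt9 cells had sums over 1542 CPM.

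**Figure D3:**
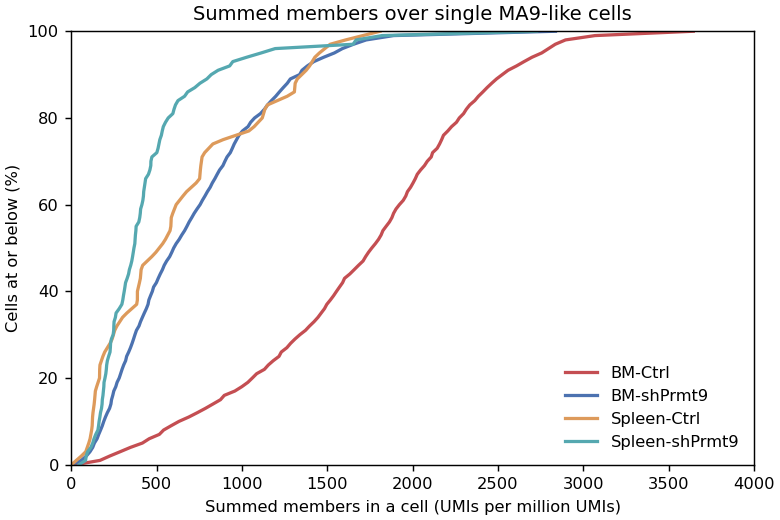
Summed members in single MA9-like cells (x axis, CPM of the cell) against the percent of cells at or below that value (y axis), with 1 line per library. The line of BM-Ctrl (median 1761) lies to the right of those of BM-shPrmt9 (600), Spleen-Ctrl (515) and Spleen-shPrmt9 (367).

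Because MA9-like cells were deep, with median counts of 54265 UMIs in BM-Ctrl and 47724.5 in BM-shPrmt9, cells were also thinned to 3000 UMIs before shares of cells with a UMI were compared. After thinning, Cth was seen in 19.4% (17.2–21.8, exact binomial) of MA9-like cells of BM-Ctrl and 0.935% (0.512–1.56) of those of BM-shPrmt9, and in 0.509% of B cells of BM-Ctrl (median 4664 UMIs). Unthinned, the 3 shares were 71.5%, 12.0% and 1.24%. Within BM-shPrmt9 itself, the thinned share of cells with Cth was 0.0271% (0.000687–0.151) in mature neutrophils (median 5758 UMIs), and 1 of 94 B cells had a UMI of it. Free RNA, estimated from markers of other classes, came to 3.87% of the UMIs of MA9-like cells in BM-Ctrl and 4.10% in BM-shPrmt9, and the log2 ratio of Cth was -4.04 with it subtracted and -4.05 without. Thinned shares of Stc2 were 20.9% and 7.48% in MA9-like cells, against 0.916% in B cells of BM-Ctrl. For Trib3 they were 24.1% and 1.8%, against 3.36% of those B cells. Monocytes of BM-Ctrl had a UMI of Trib3 in 24.95% (21.23–28.96), not told apart from its MA9-like cells. Monocytes of BM-shPrmt9 had it in 1.74% (0.476–4.39). Thinned shares of Ddit3 were 31.4% and 4.61% in MA9-like cells, against 13.5% of the B cells. Mature neutrophils of BM-Ctrl had Ddit3 in 32.88% (30.85–34.96), while its monocytes were lower, with an interval of 16.6–23.8. Under 3000 UMIs were 12 of 517 monocytes and 994 of 3053 mature neutrophils of BM-Ctrl. The B cells left out for having under 3000 UMIs numbered 70 of 1052, and 0 and 1 MA9-like cells were left out.

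Different clusters held the MA9-like cells of the libraries, in a clustering made without the members. Cluster 0 (led by Spp1, Ero1l and Bcl2a1a) and the proliferative cluster 8 (led by Top2a and Cdca8) held 742 and 383 of those of BM-Ctrl. Cluster 23 (led by Cstdc5, Stfa2 and Stfa3) and the proliferative cluster 28 (led by Hist1h1b and Hist1h2ae) held 1064 and 394 of those of BM-shPrmt9. None of the 4 had an MA9 marker among its 10 leading genes. Cluster 0 had Cox6a2, a plasmacytoid dendritic cell marker, and the members Cth and Trib3 among them, and 23 and 28 had Ms4a3, a neutrophil progenitor marker, so values are given by cluster number too. The summed members were at 1792 CPM (1778–1806) in cluster 0 and 1872 CPM (1856–1889) in cluster 8 of BM-Ctrl, and at 728 CPM (721–736) in cluster 23 and 979 CPM (968–990) in cluster 28 of BM-shPrmt9. Both clusters of the control were above both clusters of the knockdown. In Spleen-Ctrl the 21 cells of cluster 0 had 682 CPM (631–736), and in Spleen-shPrmt9 the 154 cells of cluster 23 had 462 CPM (442–483). Cells of cluster 0 thus differed by library, with Ddit3 at 157 CPM (153–161) in BM-Ctrl and 14.4 CPM (7.87–24.1) in Spleen-Ctrl, and Cth at 96.4 CPM (93.3–99.6) and 10.3 CPM (4.93–18.9).

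Markers of other cells moved with the groups in the MA9-like cells. The 7 mature neutrophil markers summed to 8005 CPM in BM-Ctrl and 30319 CPM in BM-shPrmt9, and in the spleens to 66217 CPM for Ctrl and 141489 CPM for shPrmt9. The 6 immature neutrophil markers summed to 1691, 6543, 16051 and 38164 CPM in the same order. The order of the libraries by these sums was the reverse of that by the summed members. When only cells with mature neutrophil markers at or under 5000 CPM were kept in bone marrow (803 and 489 cells), 6 of 10 members were at least 2-fold lower. The median log2 ratio was then -1.44. The serine enzymes came closer to equal levels, with Phgdh at -0.11 instead of -0.50 and Psat1 at -0.43 instead of -0.85. Cells under this limit were too few in the spleens for a value. The 11 erythroid markers were higher with the hairpin in both tissues, with sums of 408 and 1114 CPM in bone marrow and 203 and 2942 CPM in spleen. So were the 10 monocyte markers, at 3133 and 5912 CPM in bone marrow and 2935 and 9991 CPM in spleen. The 5 neutrophil progenitor markers summed to 10264 and 12088 CPM in bone marrow, and to 6178 and 1661 CPM in spleen. The 5 plasmacytoid dendritic cell markers were at 60.8 and 5.79 CPM in bone marrow and 6.03 and 2.45 CPM in spleen, and the 5 megakaryocyte markers at 3.87 and 27.2 CPM and at 2.68 and 5.78 CPM. The 9 B cell markers summed to 26.5 to 189 CPM and the 11 T cell markers to 4.56 to 74.8 CPM over the 4 libraries. The sums of the stem cell, conventional dendritic, basophil and plasma cell lists were at or under 27.7 CPM in each library. The part of these markers in the result was not tested. The 6 NK cell markers were at or under 1.34 CPM in sum, with 1 to 4 of them at 0.

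The lower level of members in BM-shPrmt9 was not limited to the MA9-like gate. The monocytes and neutrophils compared here differed in Xist, at or under 0.475 CPM in BM-Ctrl and at 108 to 636 CPM in BM-shPrmt9. By Xist, those of BM-Ctrl were not told apart from its MA9-like cells. Whether they were the recipient's own cells, and the part of this in the ratios, was not tested. In monocytes and macrophages of bone marrow (517 and 248 cells) 7 of 9 members with enough UMIs were at least 2-fold lower and 1 higher, against 7.5% lower and 6.69% higher of all genes, and Stc2, the 1 that was higher, had 11 and 13 UMIs and an interval that held 1. Trib3 was at 105 CPM there in the control, near its level in MA9-like cells, and at 4.53 CPM with the hairpin, 23.3-fold (15.3–37.3) lower. Chac1 was 7.17-fold (4.16–13.4) and Asns 3.67-fold (3.03–4.49) lower in these cells. In mature neutrophils (3053 and 3884 cells) 6 of 10 members were lower and 0 higher, against 4.73% and 4.7% of all genes. The largest there were Cth at 16.0-fold (4.89–82.9), from 25 and 3 UMIs, and Trib3 at 8.45-fold (6.33–11.4). With free RNA subtracted, too few UMIs of Cth were left in these neutrophils for a ratio, and 4 of 6 members were lower. Most mature neutrophils of the control and of the knockdown fell in different clusters, 2 and 12. In immature neutrophils (705 and 1526 cells) 4 of 9 were lower and 0 higher, against 7.56% and 3.75%, with Trib3 at 19.3 and 2.29 CPM.

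Lymphoid cells and basophils of bone marrow held fewer UMIs. In B cells (1052 and 95 cells) 4 of 8 members were lower and 0 higher, against 7.7% and 4.77% of all genes, and Trib3 had 87 UMIs in the control and 1 with the hairpin, a ratio of 0.0689 (0.00173–0.394). The marrow B cells of the 2 libraries shared cluster 7, which held 338 cells of BM-Ctrl and 50 of BM-shPrmt9. The others lay largely in different clusters, mostly 11 and 5 in the control and 15 with the hairpin. With free RNA subtracted, 2 of 7 members were lower in B cells. In T cells (273 and 160 cells) 3 of 6 were lower and 0 higher, against 3.91% and 4.13% (2 of 5 lower with free RNA subtracted), while Atf4 (113 and 121 CPM) and Ddit3 (36.5 and 47.8 CPM) had ratios whose intervals held 1. In basophils and mast cells (80 and 84 cells) 2 of 6 were lower, Ddit3 and Asns, and 0 higher, against 3.52% and 4.54%, and 1 of 5 was lower with free RNA subtracted. Ddit3 was at 113 CPM in basophils of the control and 32.9 CPM in those of the knockdown.

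Erythroid cells of bone marrow (626 and 1102 cells) did not share the pattern. There 1 of 7 members was at least 2-fold lower and 1 higher, against 2.08% lower and 20.2% higher of all genes. The median log2 ratio of the members was 0.21, beside 0.30 for all genes. Sesn2 was the higher one, at 8.60 and 21.5 CPM (2.50-fold, 1.70–3.80), and Psat1 the lower one, at 4.84 and 2.26 CPM. Ddit3 was at 132 CPM in the control and 172 CPM with the hairpin, so erythroid cells held the highest Ddit3 level of BM-shPrmt9. The hairpin target differed less outside the MA9-like gate of bone marrow. Prmt9 ratios were 0.959 (0.711–1.30) in mature neutrophils and 1.33 (0.963–1.84) in monocytes, both with intervals that held 1. Whether these cells of BM-Ctrl were the recipient's own was not tested.

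Lymphocytes of the spleen went the other way. In B cells (5322 and 880 cells) 6 of 9 members were at least 2-fold higher with the hairpin and 0 lower, against 4.49% higher and 9.12% lower of all genes. The median log2 ratio of the members was 1.12, beside -0.17 for all genes. Asns was at 1.30 CPM in the Ctrl spleen and 14.2 CPM in the shPrmt9 spleen, 10.9-fold (8.04–15.1) higher. Chac1 had 8 and 30 UMIs and was 11.6-fold (5.22–29.4) higher, and Cth had 6 and 30 UMIs and was 15.5-fold (6.36–45.6) higher. Phgdh was at 118 and 240 CPM, Psat1 at 10.1 and 26.8 CPM and Ddit3 at 25.6 and 55.6 CPM. The B cells of the 2 libraries lay in different clusters, mostly 5 and 10 in the control and 15 and 24 with the hairpin.

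In T cells of spleen (1969 and 2366 cells) 4 of 10 members were at least 2-fold higher and 0 lower, against 4.26% higher and 9.28% lower of all genes, and 2 of 9 were higher with free RNA subtracted. Ddit3 was at 24.0 CPM in the Ctrl spleen and 100 CPM in the shPrmt9 spleen, 4.18-fold (3.77–4.65) higher. Atf4 was at 80.6 and 162 CPM, Sesn2 at 1.71 and 4.6 CPM and Cth at 0.114 and 0.817 CPM, from 2 and 19 UMIs. The serine enzymes Phgdh (114 and 125 CPM) and Psat1 (18.3 and 18.7 CPM) were under the limit. These T cells too lay in different clusters, 1 and 21 in the control and 27 and 29 with the hairpin. In NK cells (82 and 131 cells) 3 of 7 members were higher, and 0 lower, against 9.68% and 4.97%. They were Ddit3 at 12.1 and 88.0 CPM (7.25-fold, 4.23–13.4), Trib3 with 3 and 19 UMIs (5.74-fold, 1.69–30.3) and Atf4 at 153 and 320 CPM (2.09-fold, 1.76–2.49).

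Erythroid cells of spleen (175 and 1583 cells) again stood apart from the lymphocytes. Of 7 members 1 (Asns, at 47.1 and 15.8 CPM) was lower and 0 higher, but 48.4% of all genes there were lower and 5.57% higher, with a median log2 ratio of -0.98 for all genes and 0.19 for the members.

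**Figure D4:**
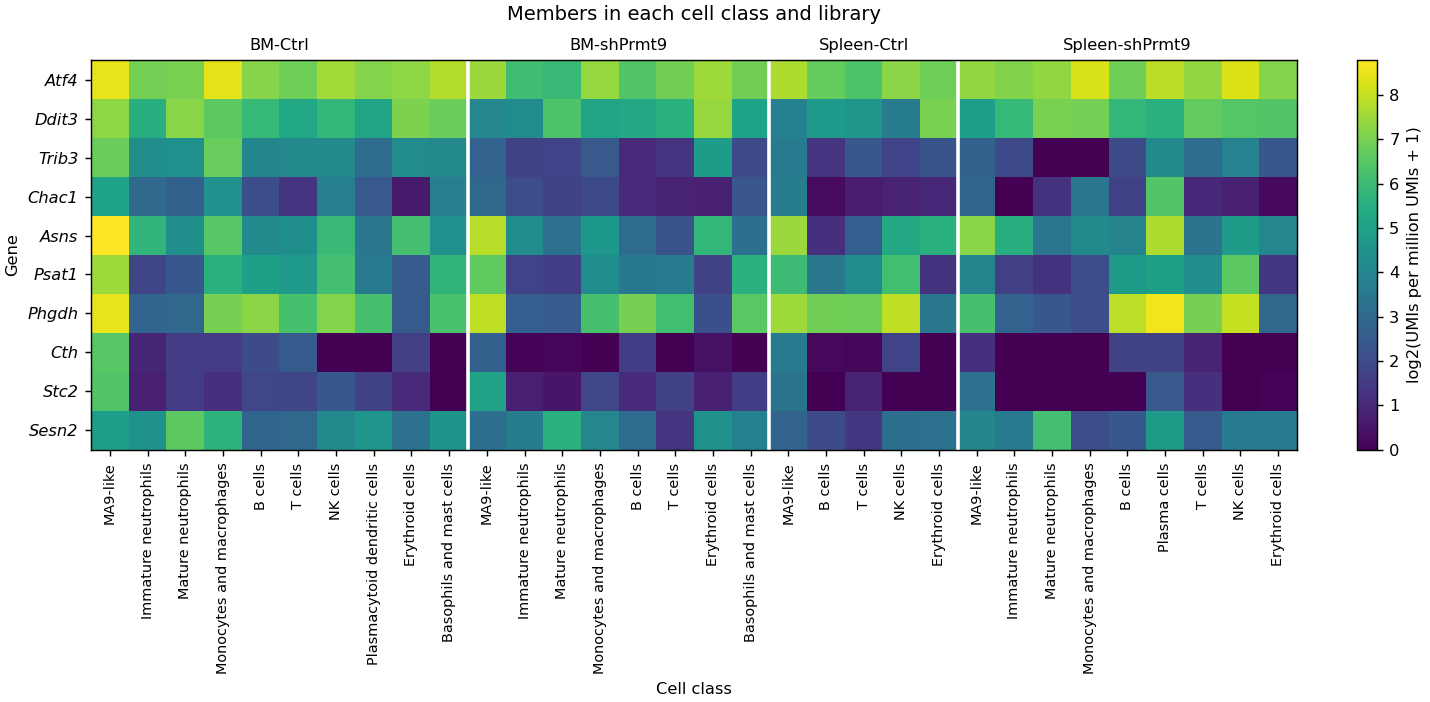
Level of each member (rows) in each cell class and library with at least 20 cells (columns), as log2(CPM + 1), with darker or lighter cells by the colour bar. Cth and Stc2 stand out in MA9-like cells of bone marrow, while Ddit3 and Atf4 are spread over nearly all classes.

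Within BM-Ctrl, the order of the classes differed from member to member, and this is a description since it was the contrast that had chosen Cth and Stc2. Cth was at 89.1 CPM in MA9-like cells and 0 to 4.63 CPM in the other 9 classes, and Stc2 at 83.7 and 0 to 4.40 CPM. Asns was at 439 CPM in MA9-like cells, then 90.7 CPM in monocytes and 71.5 CPM in erythroid cells, and 10.1 CPM in plasmacytoid dendritic cells at the low end. Psat1 (177 CPM) and Phgdh (348 CPM) were also highest in MA9-like cells, and next in NK cells (70.5 CPM) and B cells (150 CPM). For these 5 genes the interval of MA9-like cells lay apart from that of the next class. For Atf4 (349 and 346 CPM in MA9-like cells and monocytes), Trib3 (109 and 105 CPM in the same classes) and Ddit3 (155 and 148 CPM in MA9-like cells and mature neutrophils) it did not, so the first 2 classes were not told apart. Chac1 was at 33.6 CPM in MA9-like cells and 20.6 CPM in monocytes. Sesn2 was highest in mature neutrophils at 93.3 CPM, and its 29.7 CPM in MA9-like cells came next, after monocytes at 50.1 CPM.

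Set against all other gated cells of the same library, MA9-like cells of BM-Ctrl held 7 of the 10 members at least 2-fold higher, against 22.7% of all genes tested, and the 7 include Cth and Stc2, which were picked on this contrast. The ratio was 52.0 for Stc2, 46.0 for Cth, 9.82 for Asns, 9.44 for Psat1, 6.13 for Phgdh, 4.10 for Chac1 and 3.07 for Trib3. It was 1.96 for Atf4, 1.62 for Ddit3 and 0.667 for Sesn2. In BM-shPrmt9 7 of 10 were also higher, against 40.5% of all genes, with Cth at 39.9, Stc2 at 38.7, Psat1 at 20.7, Phgdh at 15.5 and Asns at 12.3. Ddit3 (0.252) and Sesn2 (0.288) were lower in MA9-like cells than in the other cells of BM-shPrmt9, and Trib3 was at 1.11. In Spleen-Ctrl 7 of 10 were higher, against 16.0% of all genes, with Cth at 65.3, Stc2 at 39.4, Asns at 36.2 and Chac1 at 23.8, from 14 to 262 UMIs in MA9-like cells, while Phgdh was at 1.56 and Ddit3 at 0.472. In Spleen-shPrmt9 3 of 10 were higher, against 21.4% of all genes. There Stc2 (15.9), Asns (8.83) and Chac1 (2.72) were higher in MA9-like cells, while Cth was at 1.59 from 6 UMIs, Psat1 at 0.898 and Phgdh at 0.644.

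The wider pathway was read from lists in MA9-like cells, where a gene needed 20 UMIs over both libraries to be counted. The lists were chosen with earlier results of these data known, so their counts are a description. The counts in bone marrow stand against 6.12% lower and 12.6% higher of all genes. There the partner bZIP factors were lower in 5 of 7, with a median log2 ratio of -1.06, among them Atf3 at 4.34 and 0.724 CPM, Atf5 at 127 and 33.3 CPM and Nupr1 at 146 and 43.7 CPM. In the serine, glycine and folate-cycle list, which also held enzymes of other paths such as proline synthesis, 5 of 11 were lower and 0 higher. Among the lower were Aldh1l2, a mitochondrial folate enzyme, at 12.0-fold (8.50–17.4) and Pycr1, of proline synthesis, at 6.86-fold (6.12–7.71). Psph, the phosphatase that completes serine synthesis, was 2.95-fold (2.85–3.06) lower. Of the amino acid transporters 4 of 9 were lower, with the glycine carrier Slc6a9 at 7.41-fold (5.81–9.57) and the neutral amino acid carriers Slc1a4 at 7.32-fold (5.72–9.47) and Slc7a5 at 3.20-fold (3.0–3.40), and 1 was higher, Slc43a1, from 10 and 76 UMIs. Of 21 cytosolic tRNA synthetases 6 were lower and 0 higher, led by Eprs at 406 and 131 CPM, Iars at 78.0 and 27.3 CPM and Wars at 49.3 and 18.7 CPM.

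The remaining lists covered other branches of the response in bone marrow. Of 14 genes for the sensor kinases and the eIF2 cycle 1 was lower, Ppp1r15a, which encodes the GADD34 subunit that reverses eIF2 phosphorylation, at 55.6 and 14.6 CPM, and 0 were higher, a share near that of all genes. Of 9 genes in the list of transsulfuration, glutathione and related enzymes 0 passed in either direction. Of 13 targets of ATF6 and XBP1, the other arms of the endoplasmic reticulum response, 2 were higher (Creld2, 2.94-fold, 2.77–3.12, and Pdia6, 2.21-fold, 2.17–2.25) and 1 lower (Herpud1, 2.46-fold, 2.36–2.56), again near the shares of all genes, with a median log2 ratio of 0.29. Of 8 other stress targets Fgf21 (115 and 4 UMIs) and Bbc3, which encodes the death protein PUMA, were lower, while Gdf15 (2.97-fold, 2.51–3.55) and the autophagy gene Map1lc3b (2.16-fold, 2.10–2.21) were higher. Among 3 relatives of members Sesn3 was higher, from 23 and 69 UMIs.

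In MA9-like cells of spleen the counts stand against 16.1% lower and 11.6% higher of all genes. The tRNA synthetases were lower in 15 of 21 and higher in 0, with Iars at 34.8 and 9.57 CPM and Vars at 59.6 and 16.5 CPM. In the serine, glycine and folate-cycle list, with its enzymes of other paths, 7 of 9 were lower, with Psph at 90.4 and 8.68 CPM and Shmt2 at 46.9 and 6.67 CPM. Of the transporters 2 of 6 were higher, the cystine carrier Slc7a11 (3.96-fold, 3.23–4.90) and Slc38a2 (2.02-fold, 1.70–2.40), and 2 lower, Slc7a1 and Slc1a5. Of 7 bZIP factors 1 was higher, Jun at 28.8 and 91.4 CPM, and 0 lower. Of the eIF2 list 2 of 14 were higher, Ppp1r15a (2.79-fold, 1.56–5.4) and Eif2ak3, which encodes PERK and whose interval held 1, and 3 were lower, led by Eif2b3 (4.85-fold, 3.15–7.57). In the list of transsulfuration, glutathione and related enzymes Gclm was 1 of 7 higher (2.74-fold, 2.44–3.08). The 3 lower genes of that list were Mat2a (4.84-fold, 3.99–5.89), Ggct and Mpst. Of 5 other stress targets 3 were higher (Sqstm1, Ddit4 and Map1lc3b) and 0 lower, of 13 targets of ATF6 and XBP1 only Sdf2l1 passed, at 212 and 72.5 CPM, and Trib1, the 1 relative with enough UMIs, was higher.

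**Figure D5:**
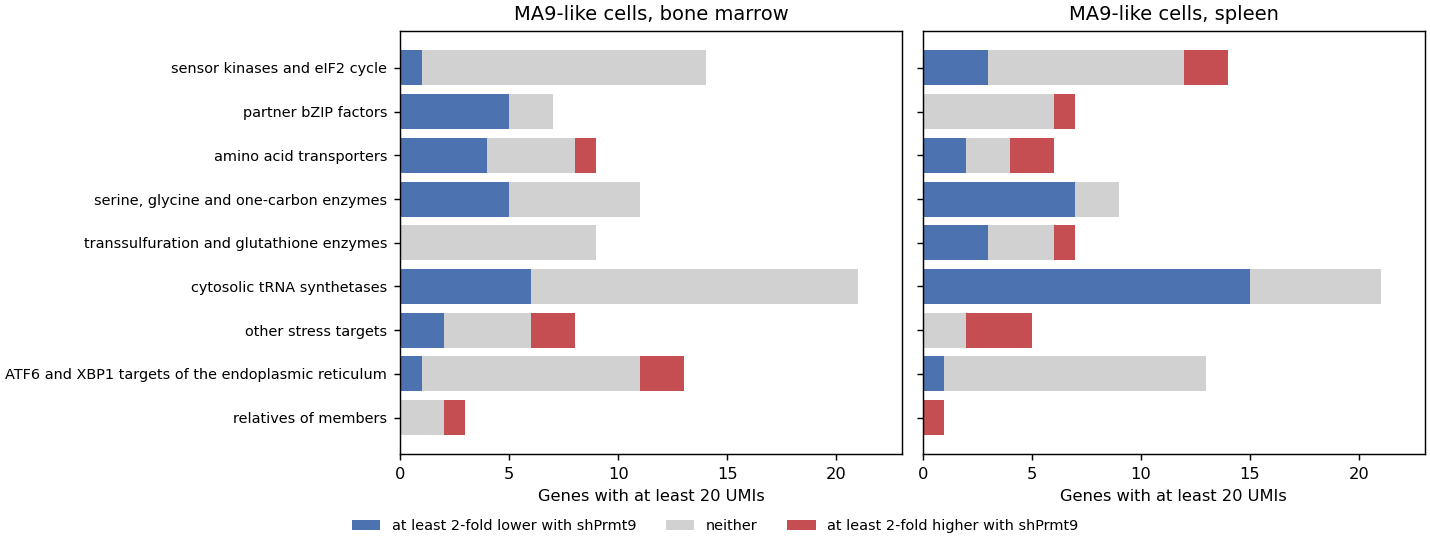
Number of genes of each pathway list that were at least 2-fold higher, at least 2-fold lower or neither in MA9-like cells with shPrmt9 over Ctrl, in bone marrow (left) and spleen (right), among genes with at least 20 UMIs (x axis). In bone marrow the lower genes are found in the bZIP (5 of 7), transporter (4 of 9), serine (5 of 11) and tRNA synthetase (6 of 21) lists, and in spleen mainly in the serine (7 of 9) and tRNA synthetase (15 of 21) lists.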

How the data were processed

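Bone marrow and spleen cells of 4 libraries, 1 per group, were profiled by droplet-based 3′ single-cell RNA-seq. Each matrix holds the UMI counts as deposited, not normalized, and the authors used Cell Ranger to count them (6.0.2 per the file headers, 6.1.1 with build mm10 per the submitters' processing notes). The titles gave the groups. The members and gene lists were chosen with earlier results of these data known. Gene positions are those of GENCODE for GRCm38.

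Barcodes with under 200 genes or over 20% mitochondrial UMIs were removed. Scrublet called 128, 0, 1 and 190 doublets, so it had not worked in 2 libraries, and the 744, 999, 640 and 520 cells with the highest scores were left out instead, up to 0.8% per 1000 cells. Classes were named by marker gates: for MA9-like, UMIs of at least 3 of 6 markers, at least 100 CPM in sum and no other class score of 0.3 or more (log2, pseudocount 100 CPM), immature neutrophils excepted; for the 12 others, a best score of at least 0.3, a lead of 0.1, 3 own markers and at most 1 MA9 marker. The gate values were chosen with the data in view, and 8.21% to 29.1% of cells stayed ungated. These names are not the study's own, so values may differ from it for that reason. Clusters came from scanpy 1.11.5 without the members.

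CPM was computed for classes of at least 20 cells in a library. A ratio needed 20 UMIs over both libraries, and a 2-fold ratio was counted. All members and, of each list, up to 3 genes with the largest ratio in each direction were named. Fewer transcripts per cell and a lower share of all transcripts cannot be told apart on this scale. The functions were tested on simulated counts with scipy 1.17.1 and numpy 2.4.6.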

Additional observations from a re-analysis of the deposited data

Results flagged for a closer look

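In 10 pairs of a gene and a class, the ratio of shPrmt9 over Ctrl had an interval on opposite sides of 1 in bone marrow and in spleen, and the difference between the tissues was not tested, as each ratio rests on 1 library per group. In MA9-like cells these were Ddit3, at 0.103 (0.0966–0.109) in bone marrow and 2.21 (1.37–3.73) in spleen, and Sesn2, at 0.270 (0.246–0.296) and 2.47 (1.23–5.64). In erythroid cells the order was turned for Ddit3, at 1.31 (1.17–1.45) in bone marrow and 0.677 (0.594–0.774) in spleen. The median log2 ratio of all genes in these cells went the same way, at 0.30 in bone marrow and -0.98 in spleen.

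The other 7 pairs were in lymphocytes, lower in bone marrow and higher in spleen. In B cells Atf4 was at 0.583 (0.457–0.735) in bone marrow and 1.10 (1.04–1.17) in spleen. Ddit3 was at 0.658 (0.453–0.930) and 2.17 (1.97–2.38). Trib3 was at 0.0689 (0.00173–0.394) and 1.93 (1.27–2.89). Asns was at 0.433 (0.169–0.926) and 10.9 (8.04–15.1), and Psat1 at 0.355 (0.167–0.669) and 2.66 (2.30–3.06). In T cells Trib3 was at 0.0935 (0.0109–0.367) and 1.84 (1.39–2.44), and Asns at 0.197 (0.0605–0.501) and 1.82 (1.42–2.35). The bone marrow and spleen libraries also differed in sex-linked genes, so tissue cannot be told apart from animal and sex. The part of this in the values was not tested.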

How the results depend on the processing

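No paired analysis was possible because the labels carry no replicate numbers and each group has 1 library. For the bone marrow MA9-like cells, the median log2 ratio of the members was -1.62, and it was -1.8 as a mean over cells, -1.77 with cells thinned to 1 depth, -1.88 in the less proliferative and -1.21 in the proliferative leukaemia clusters, -1.94 in cells with 30000 to 60000 UMIs and -1.44 in cells with few mature neutrophil markers. The count of members at least 2-fold lower was 6 to 9 and that of members at least 2-fold higher was 0 in all 14 settings tried. In spleen 6 members passed 2-fold, but 1 passed with thinned cells, where 3 members had enough UMIs, and 3 (1 higher, 2 lower) when 4 MA9 markers were asked for. Over all 13 class comparisons 55 of 108 ratios passed 2-fold, 17 higher and 38 lower. Of all genes, 2.08% to 48.4% were lower and 3.75% to 20.2% higher, depending on the class. Counts under the alternatives ran from 37 of 78 ratios with thinned cells to 67 of 129 with classes from clusters. No ratio that had passed was turned round. The 5 alternatives on leukaemia clusters, depth, neutrophil markers and MA9 markers were chosen after seeing the data. In spleen the alternatives on depth, neutrophil markers and proliferative clusters gave too few cells for a value. Depth limits mainly Spleen-Ctrl, where 3 UMIs correspond to 2.01 CPM in MA9-like cells, against 0.0465 CPM in BM-Ctrl.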

Other observations

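Plasma cells, seen with at least 20 cells only in Spleen-shPrmt9 (35 cells), had the highest summed level of the members outside MA9-like cells, 1041 CPM (975–1110). Chac1 was at 85.5 CPM (67.5–107) there, above its 33.6 CPM in MA9-like cells of BM-Ctrl. Phgdh was at 387 CPM (347–429), Atf4 at 235 CPM (205–269) and Asns at 205 CPM (177–237). Cth and Stc2 had 2 and 4 UMIs. Plasma cells are known for their load of secretory protein.

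The genes whose levels followed those of Cth most closely over the 28 class and library units of at least 50 cells were 9130024F11Rik (Pearson r = 0.877), Lin28b (0.857) and Col4a1 (0.844), among 13747 genes compared. For Stc2 they were Rhoj (0.931), Hpgd (0.912) and Platr16 (0.904). For the median of the members they were Gpt2 (0.824), which encodes a mitochondrial alanine aminotransferase, and Mthfd2 (0.818), a mitochondrial folate enzyme. Among the members the highest r was that of Psat1 and Phgdh (0.906), followed by Cth and Stc2 (0.752), and the lowest was that of Phgdh and Sesn2 (-0.417). These are descriptions over units that share libraries and depth.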
